A study of Homo sapiens with 267 samples.

Results

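The nuclear-encoded subunits of respiratory complexes I to IV were described in RNA-sequencing libraries of K562, a chronic myeloid leukaemia line in which the BCR-ABL fusion kinase is active. Of the 63677 genes in the count table, 59 were chosen because their Ensembl identifiers map to listed gene symbols, a rule that uses no measured value. They comprise 36 genes counted here with complex I, 4 genes of complex II, 9 of complex III and 10 of complex IV. The list does not hold every known subunit.

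Libraries were made from cells captured on the C1 system, whose microfluidic sites each take up a cell and turn its RNA into cDNA. In the Hoechst run, 96 libraries came from untreated cells at passages 90 to 92 that were stained with Hoechst and propidium iodide. In the benzene run, cells at passages 20 to 22 carried either CellTracker Green and no drug or CellTracker Orange with 10 mM benzene for 3 h. In the imatinib run, cells at the same passages carried either CellTracker Green and no drug or CellTracker Orange with 1 µM imatinib, an inhibitor of the BCR-ABL kinase, for 1 h. Counts were used for 96 of the 96 Hoechst run libraries, 71 of 75 benzene run libraries and 96 of 96 imatinib run libraries. The study set fresh cells beside cells fixed with DSP, a reversible crosslinker, within each run. The labels do not say which libraries came from fresh cells, fixed cells, bulk RNA or empty sites, and none was assigned to these. No separate cultures are named within a group, so its libraries were not taken as replicates of a treatment and no test was made between groups. Stain and drug cannot be told apart, nor can run, passage and the stains of a run.

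Complexes I and II feed electrons from NADH and succinate to ubiquinone, complex III passes them to cytochrome c, and complex IV hands them to oxygen. Complexes I, III and IV pump protons, which drive the ATP synthase. The central, hydrophobic subunits of complexes I, III and IV are encoded in mitochondrial DNA, whereas complex II is encoded in the nucleus alone, so each cell has to bring together products of both genomes. Cells of erythroid character such as K562 also use mitochondria for haem synthesis, which succinyl-CoA from the citric acid cycle supplies.

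A level is given here as reads on a gene per 1000000 reads on nuclear genes of the same library. Genes of the mitochondrial genome and ERCC spike-ins stand outside this total, so that a library rich in mitochondrial reads does not lower its nuclear genes by arithmetic. Levels are relative to the other nuclear genes and do not measure RNA per cell. Libraries in which the 500 top genes took more than 70% of gene reads were set aside, namely 14 libraries of the Hoechst run, 6 of the benzene run and 1 of the imatinib run. The 82, 65 and 95 libraries kept had medians of 1098090, 1242030 and 1144160 reads on nuclear genes and of 7410.5, 5905 and 8022 genes with more than 2 reads. Of 10 K562 erythroid markers, 8, 9 and 10 were found in 80% or more of libraries in the 3 runs. Of 8 markers of other cell types, the T, B and monocyte markers CD3E, MS4A1 and CD14 had medians of 0 in each run. The epithelial markers EPCAM and KRT19 were detected in 84.1% and 80.5% of Hoechst run libraries, 78.5% and 40% of benzene run libraries and 86.3% and 86.3% of imatinib run libraries.

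Within each run the libraries differed along the number in their titles. This number is a label, but what it stands for is not given. The summed level of the 59 members in the benzene run lay between 16426 and 25506 in the 28 libraries numbered 1 to 35 (median 20914), and between 6474 and 18133 in the 37 libraries numbered 36 to 94 (median 12001). The summed level of complex IV did not overlap at all between these libraries, with 5031 to 9399 against 1910 to 4767. How many other genes or gene sets also did not overlap was not counted. Axis 2, in order of variance, of 8975 genes outside the members separated the same libraries without overlap. That axis was picked for its rank correlation with the number (0.72), and the libraries were divided where those genes separated most. Its lack of overlap therefore follows largely from these choices. The axes so picked in the Hoechst and imatinib runs did overlap. The rank correlation (Spearman's rho) of the member sum with the number was −0.74 in the benzene run, 0.55 in the imatinib run and 0.18 in the Hoechst run. The number at which each run was divided was the one at which 8975 genes outside the members separated most, with at least 8 libraries per side, and it was sought after this pattern had been seen. It fell between 29 and 31 in the Hoechst run, 35 and 36 in the benzene run, and 47 and 48 in the imatinib run, and explained 3.88%, 5.16% and 3.76% of the variance of those genes. Both stains were present on both sides, with 13 Green and 15 Orange libraries against 18 and 19 in the benzene run, and 23 and 23 against 27 and 22 in the imatinib run. The median share of ERCC reads was 2.65% and 5.85% on the first and second sides of the Hoechst run, 3.62% and 4.71% in the benzene run, and 6.17% and 11.8% in the imatinib run. The sides were not taken as a condition, and they cannot be told apart from fixation, the contrast that the study made within each run. Correlations over libraries are therefore given for the first and the second numbers of a run apart, and a value pooled over both sides is named as pooled.

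**Figure D1:**
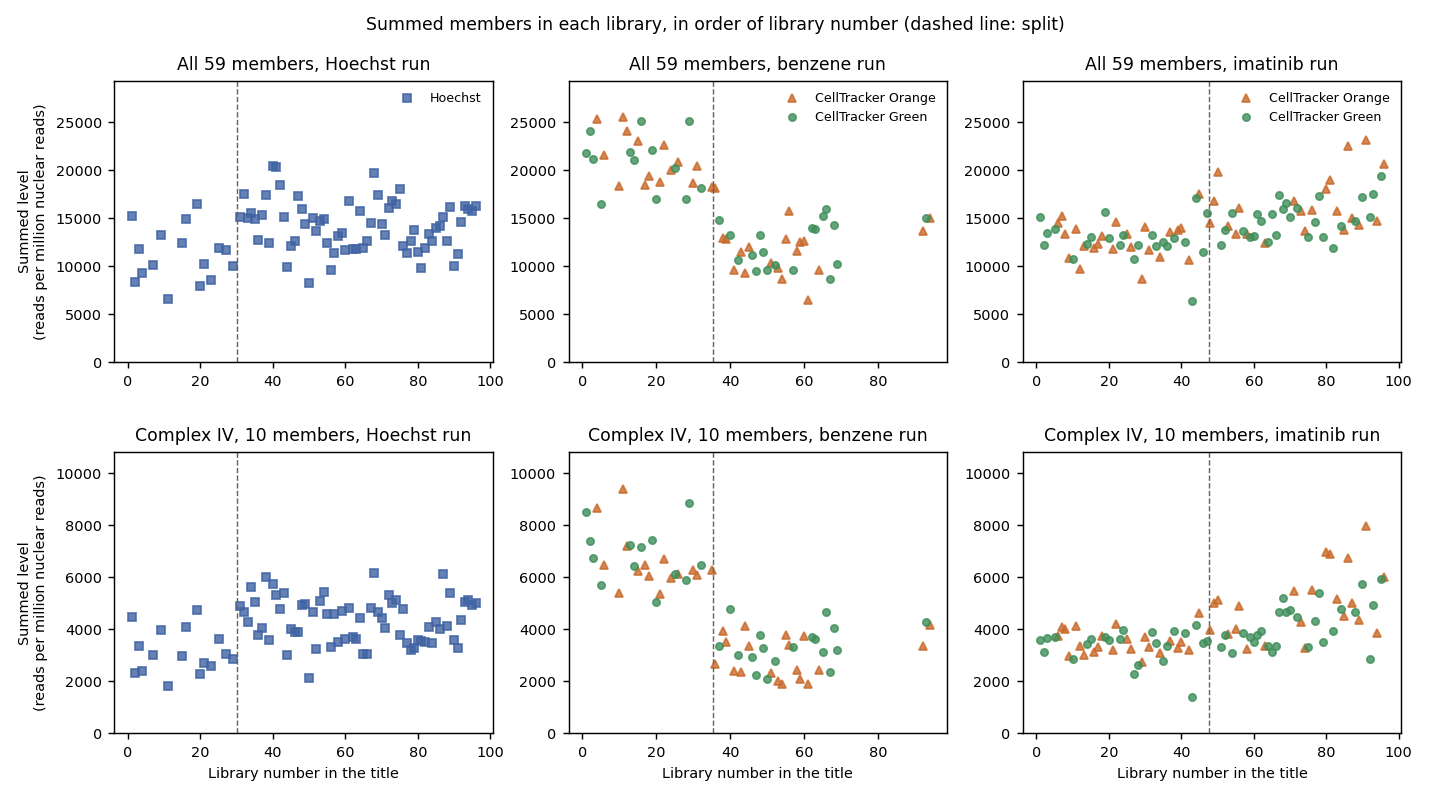
Summed level of the 59 members (upper row) and of the 10 complex IV members (lower row) against the number in the library title, for the 3 runs, in reads per 1000000 reads on nuclear genes. Each point is a library, coloured by stain, and the dashed line marks where the other genes separate most; in the benzene run the complex IV sum falls from 5031 or more before the line to 4767 or less after it.

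The members together took up a median of 13537 reads per 1000000 in the Hoechst run, with a range of 6519 to 20446 and an SD of 2898 over 82 libraries. In the benzene run the median was 14970 (6474 to 25506, SD 5141, n = 65), and in the imatinib run 13742 (6317 to 23176, SD 2669, n = 95). The medians of the 3 runs thus lay closer together than 1 SD of any run. A library of the Hoechst run detected, with more than 2 reads, a median of 56 of the 59 members, as did one of the benzene run, and one of the imatinib run detected 57. In all, 53 members were found in 80% or more of libraries in every run, and 13 in every library kept. Complex I took a median of 45%, 42.4% and 43% of the member reads in the Hoechst, benzene and imatinib runs, complex II 5.15%, 7.42% and 7.18%, complex III 18.7%, 20.2% and 21.1%, and complex IV 30.4%, 29.5% and 27.6%. Complex IV, with 10 of the 59 genes, thus took more reads than complex III and less than complex I.

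Levels were compared between genes per 1000 bases of the canonical transcript, which 58 members have. This length was chosen after it was seen that the union of all annotated exons inflates some genes. Of the complex I members, NDUFS5, NDUFA1 and NDUFB9, all accessory subunits, had the highest means over the 3 runs per length. NDUFA1, a small membrane-arm subunit, had mean levels per 1000 bases of 1262, 877 and 690 in the Hoechst, benzene and imatinib runs. NDUFS5, a small subunit on the intermembrane-space side, had 1151, 1280 and 976, and NDUFB9, whose exons overlap those of other genes, 695, 1103 and 976. In reads per 1000000, NDUFA1 lay between 124.9 and 1422 in the Hoechst run with a median of 487, between 22.4 and 879 in the benzene run with a median of 335, and between 2.77 and 601 in the imatinib run with a median of 270. Its ranges overlap over most of their length. NDUFA7 was the least abundant member, with medians of 0 in all runs and detection in 3.7%, 10.8% and 23.2% of libraries. Its exons overlap those of RPS28, which encodes a ribosomal protein, and of another listed gene over 32.5% of their length, and the part of that overlap in its low count was not tested.

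The core subunits of complex I in the list, most of which carry cofactors for electron transfer, spread widely in level around the median of all member medians, which was 145, 167 and 159 in the 3 runs. NDUFV1, which binds NADH and FMN, had medians of 319.5, 187 and 408 and was found in 95.4% or more of libraries in each run. Its partner NDUFV2, an iron-sulfur subunit, had medians of 9.75, 0.699 and 6.80 and was detected in 67.1%, 35.4% and 62.1% of libraries. Reads listed on pseudogenes named after NDUFV2 amounted to 53% of its own reads in number, so its level is uncertain. NDUFS1, the largest iron-sulfur subunit, had medians of 70.6, 65.5 and 146. The matrix-arm core subunits NDUFS3, NDUFS7 and NDUFS8 had medians of 137, 111.1 and 158 in the Hoechst run, of 110.5, 185 and 190.5 in the benzene run, and of 205, 214 and 267 in the imatinib run.

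Complex II oxidises succinate to fumarate and links the citric acid cycle to the chain. SDHB, its iron-sulfur subunit, was the most abundant per length, with mean levels per 1000 bases of 277, 633 and 550. In the Hoechst run its level ranged from 0 to 739 with a median of 268, in the benzene run from 3.41 to 1566 with a median of 603, and in the imatinib run from 67.3 to 1493 with a median of 555. SDHC, a membrane anchor, was the least abundant, with medians of 1.37, 0 and 6.71 and detection in 46.3%, 24.6% and 62.1% of libraries. SDHA, the flavoprotein that binds succinate, had medians of 178, 184 and 300, with 23.1% as many reads on its named pseudogenes. The other membrane anchor, SDHD, had medians of 125.5, 172 and 113 and 25.2% as many reads on its named pseudogenes.

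In complex III, UQCRH, the hinge protein beside cytochrome c1, led per length with 1328, 1428 and 1094. Its level lay between 106 and 1445 in the Hoechst run, 33 and 1812 in the benzene run and 278 and 1028 in the imatinib run, with medians of 655, 696 and 600, and it was detected in every library kept. The order at the lower end was set by a long transcript, since UQCRB, a small subunit with a canonical transcript of 8459 bases, had 26.9, 22.4 and 13.8 per 1000 bases but median levels of 197, 167 and 114. The core protein UQCRC1 had medians of 399, 564 and 892 and the other core protein, UQCRC2, 199, 423 and 321. The catalytic subunits CYC1 (cytochrome c1) and UQCRFS1 (the Rieske iron-sulfur protein) had medians of 123, 131 and 138 and of 109, 84.2 and 110.

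All 10 complex IV members, each of which is a regulatory or structural subunit around the mitochondrially encoded core, were found in 95.4% or more of libraries in every run. COX4I1, the ubiquitous form of subunit 4 (chromosome 16, 85832239 to 85840674 on GRCh37), was the most abundant member in median level. It ranged from 102 to 1634 in the Hoechst run with a median of 787, from 15.4 to 2900 in the benzene run with a median of 1259, and from 261 to 1880 in the imatinib run with a median of 960. Per 1000 bases it had 1083, 1615 and 1258. COX7B was lowest per length in this complex, with 161, 107 and 105, although its median levels were 375, 265 and 249. NDUFA4, which its name places with complex I and which is now known as a subunit of complex IV, had medians of 384, 302 and 291.

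**Figure D2:**
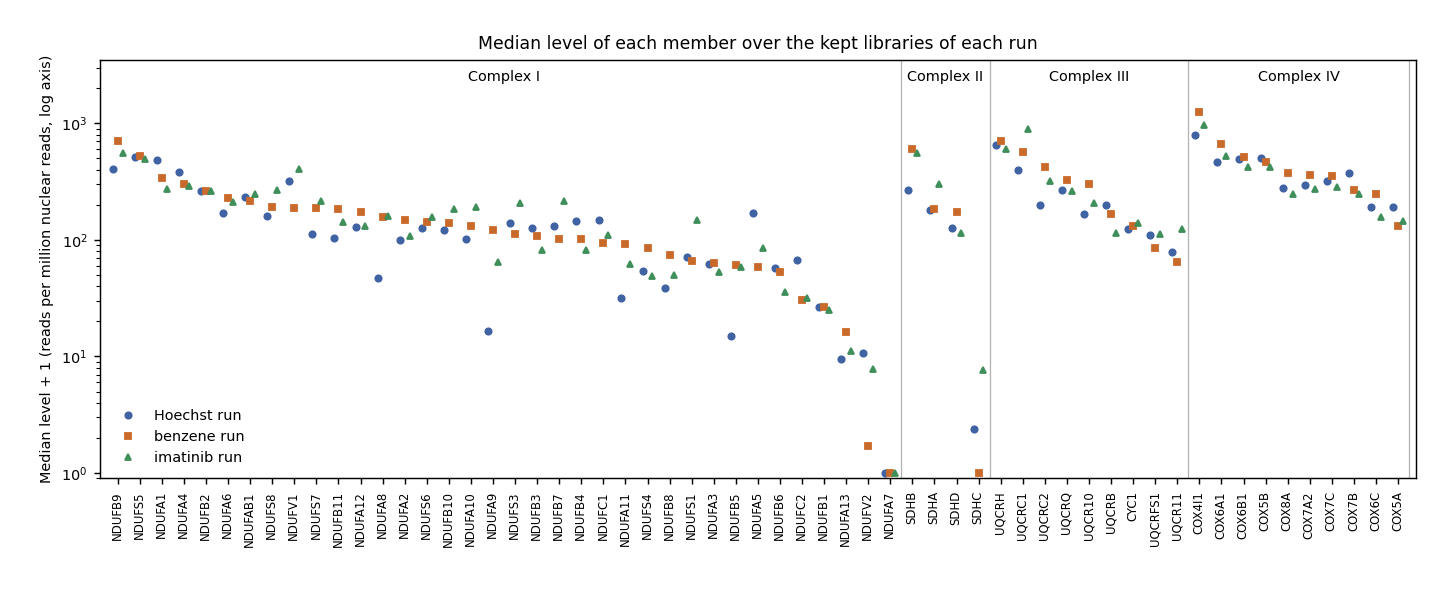
Median level of each of the 59 members in each run, in reads per 1000000 reads on nuclear genes on a log axis, grouped by complex. COX4I1 is highest (787, 1259 and 960 in the Hoechst, benzene and imatinib runs), while NDUFA7, SDHC and NDUFV2 lie at the bottom with medians of 0 to 9.75.

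Members differed in how much they varied from library to library. Among these 53 widely detected members, the SD of log2(level + 1), averaged over runs, was smallest for COX7C (0.70), UQCRH (0.71) and COX5B (0.78). It was largest for NDUFA10 (2.50), NDUFS1 (2.39) and UQCRC1 (2.39). NDUFA10 shows what such a spread looks like, since its level went from 0 to 991 in the Hoechst run, 0 to 1721 in the benzene run and 0 to 724 in the imatinib run, with medians of 100, 131 and 189. COX7C went from 46.9 to 1125, 101 to 797 and 81.4 to 676. The 3 genes of small spread encode small subunits, and of the 3 with large spread NDUFS1 and UQCRC1 encode large ones. Detection differed too, since COX7C, UQCRH and COX5B were detected in every library kept. In the run where each was found least, NDUFA10, NDUFS1 and UQCRC1 were detected in 81.5%, 86.2% and 92.7% of libraries. Libraries with few or no reads thus enter their SD.

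For 29 members the counts are uncertain. The exons of 28 of them overlap those of another listed gene, by at most 48.5% of their length (NDUFB8), and counting by exon can then drop or misplace reads. For NDUFA9, NDUFV2, SDHA, SDHD and COX6A1, reads on pseudogenes named after the gene came to over 10% of the gene's own reads. Without these 29 members the summed levels had medians of 7637, 8378 and 7572 in the 3 runs.

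Whether the members rose and fell together from library to library was described by rho over all 1653 pairs of the 58 members detected in at least 20% of libraries, beside the same for all 9033 genes so detected. Libraries of a run share that run, and the levels in a library share a depth and a denominator. In the 16 libraries of the first numbers of the Hoechst run the median over member pairs was 0.23, against 0.02 over pairs of all genes, and in the 66 libraries of the second numbers it was 0.04 against 0.04. The benzene run had 0.05 against 0.01 (n = 28) and 0.05 against 0.09 (n = 37). In the imatinib run it was 0.11 against 0.02 (n = 46) and 0.05 against 0.03 (n = 49). The median over member pairs thus stood furthest above that of all genes on the first side of the Hoechst run, and below it on the second side of the benzene run. In sparse counts a weak rho is no finding. Pooled over both sides the medians were 0.07, 0.18 and 0.08 for the Hoechst, benzene and imatinib runs, so the largest of them was that of the run whose sides lie furthest apart.

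The complexes were also taken apart. The median over the 45 pairs of complex IV was 0.34 and 0.10 on the first and second sides of the Hoechst run, 0.17 and 0.07 in the benzene run, and 0.25 and 0.24 in the imatinib run. All genes had 0.09 on the second side of the benzene run, above complex IV. For complex I these medians were 0.19, 0.05, 0.02, 0.05, 0.09 and 0.03 in the same order, and for the 36 pairs of complex III 0.28, 0.08, 0.05, 0.03, 0.15 and 0.02. The 6 pairs of complex II had 0.36, 0.11, 0.22, 0.05, 0.03 and 0.03, above complex IV on 3 sides. For the 17 nuclear subunits of the ATP synthase, which uses the proton gradient of the chain, they were 0.42, 0.07, 0.14, 0.07, 0.24 and 0.09. Pairs of the 13 mRNAs of the mitochondrial genome, which is transcribed as long polycistronic RNAs, had pooled medians of 0.82, 0.82 and 0.92 in the 3 runs.

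Each member was then set against the sum of the other members. NDUFA1, COX6B1 and UQCRQ had the highest mean of the pooled rho over the 3 runs, with 0.64, 0.60 and 0.59. Averaged over the 6 sides, the same genes had 0.40, 0.46 and 0.46. NDUFV2, UQCRC2 and NDUFS1 had the lowest, with −0.17, −0.14 and −0.13, and −0.06, 0.01 and 0.06 over the sides. COX6B1 and UQCRQ are small subunits of complexes IV and III, and COX6B1 sits on the intermembrane-space face where cytochrome c docks. On the 6 sides COX6B1 had a rho of 0.74, 0.28, 0.52, 0.26, 0.46 and 0.50, and UQCRC2 one of 0.17, −0.12, 0.07, 0.06, −0.13 and −0.00. Both genes were picked by the pooled rho of these same libraries, so the gap between them follows from that choice.

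The promoters of these 6 genes, which stand at the ends of this order, are shown so that their letters can be compared. They are the 250 bases before the RefSeq transcription start on GRCh38.p14, 5′ to 3′ on the strand of the gene, whereas the counts were made on GRCh37. Capitals mark a match, on either strand, to CCGGAAG, the core that ETS factors such as GABP bind, or to GCATGCGC, the core of the site of nuclear respiratory factor 1 (NRF1).
NDUFA1, chrX:119871582-119871831, plus strand: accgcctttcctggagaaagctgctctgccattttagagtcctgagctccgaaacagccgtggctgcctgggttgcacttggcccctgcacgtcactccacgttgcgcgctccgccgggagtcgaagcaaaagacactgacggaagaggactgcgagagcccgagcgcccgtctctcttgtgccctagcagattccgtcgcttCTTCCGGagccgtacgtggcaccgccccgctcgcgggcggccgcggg
COX6B1, chr19:35648073-35648322, plus strand: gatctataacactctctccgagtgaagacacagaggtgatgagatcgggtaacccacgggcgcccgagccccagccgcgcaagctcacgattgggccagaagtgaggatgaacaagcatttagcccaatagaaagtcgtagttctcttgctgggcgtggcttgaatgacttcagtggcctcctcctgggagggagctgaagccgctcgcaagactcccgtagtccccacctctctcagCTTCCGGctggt
UQCRQ, chr5:132866392-132866641, plus strand: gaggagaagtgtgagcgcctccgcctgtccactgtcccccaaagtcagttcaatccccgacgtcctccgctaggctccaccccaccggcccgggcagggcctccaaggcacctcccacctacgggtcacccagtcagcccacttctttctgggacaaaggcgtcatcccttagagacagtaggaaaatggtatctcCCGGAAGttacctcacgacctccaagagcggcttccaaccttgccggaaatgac
NDUFS1, chr2:206159445-206159694, minus strand, the first of 2 listed starts: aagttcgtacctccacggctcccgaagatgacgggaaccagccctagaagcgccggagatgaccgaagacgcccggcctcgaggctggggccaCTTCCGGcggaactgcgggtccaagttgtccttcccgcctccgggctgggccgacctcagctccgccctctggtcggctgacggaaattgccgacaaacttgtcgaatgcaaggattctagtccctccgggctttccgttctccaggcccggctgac
UQCRC2, chr16:21953111-21953360, plus strand: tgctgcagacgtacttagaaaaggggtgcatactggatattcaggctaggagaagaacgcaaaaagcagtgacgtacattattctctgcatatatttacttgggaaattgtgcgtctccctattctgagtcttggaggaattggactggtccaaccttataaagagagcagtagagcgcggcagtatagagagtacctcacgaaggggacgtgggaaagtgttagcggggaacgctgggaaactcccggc
NDUFV2, chr18:9102449-9102698, plus strand: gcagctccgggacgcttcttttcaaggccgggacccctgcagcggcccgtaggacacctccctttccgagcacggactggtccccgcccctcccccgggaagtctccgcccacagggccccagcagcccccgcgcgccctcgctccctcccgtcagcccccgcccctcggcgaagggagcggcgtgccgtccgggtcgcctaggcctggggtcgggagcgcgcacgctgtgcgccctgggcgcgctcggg

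Promoters of 50 of the 59 members were in the RefSeq table. The ETS core stood in 14 of them (28%), against 10.2% of 27305 genes with a window of the same length, and the NRF1 core in 9 (18%), against 3.22%. Those 27305 genes were not matched to the members for detection, level or base content. The letters CCGGAAG occur in the windows of NDUFA1, COX6B1, UQCRQ and NDUFS1, and neither core occurs in those of UQCRC2 and NDUFV2. Both cores occur in COX5B, COX6A1, SDHB and SDHD. The 14 members with the ETS core had a median of 0.47 for the mean of the pooled rho with the rest (−0.13 to 0.64), and the 36 without it 0.24 (−0.17 to 0.54), so the ranges overlap over most of their length. For the NRF1 core the medians of the same pooled measure were 0.27 for the 9 members with it and 0.27 for the 41 without it. A match is a description of letters and not a site shown to be bound. Shorter stretches hold the NRF1 core of 3 members named elsewhere in the text, again 5′ to 3′ on the strand of the gene with the core in capitals.
SDHB, chr1:17054217-17054240, minus strand, 200 bases before the start: ccaaatggGCATGCGCcgctactg
COX6A1, chr12:120437887-120437910, plus strand, 218 bases before the start: gggcacacGCATGCGCacgaagga
COX5B, chr2:97645918-97645941, plus strand, 136 bases before the start: agagctggGCATGCGCaatttccg

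Members with short transcripts varied with the rest more than those with long ones. Over the 58 members with a length, rho between canonical length and the rho with the rest was −0.36 and −0.30 on the sides of the Hoechst run, −0.34 and −0.27 in the benzene run and −0.28 and −0.42 in the imatinib run. The 36 members under 1000 bases had a median rho with the rest of 0.55 and 0.20 on the sides of the Hoechst run, 0.26 and 0.13 in the benzene run and 0.35 and 0.23 in the imatinib run. For the 22 longer members these medians were 0.36, 0.12, 0.13, 0.09, 0.24 and 0.04. The direction was the same outside the chain, since over 7821 other protein-coding genes rho between length and the rho with the member sum was −0.16, −0.53 and −0.18 in the 3 runs, pooled. The level moved with it too, as rho between a member's mean level and its pooled rho with the rest was 0.57, 0.46 and 0.43.

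**Figure D3:**
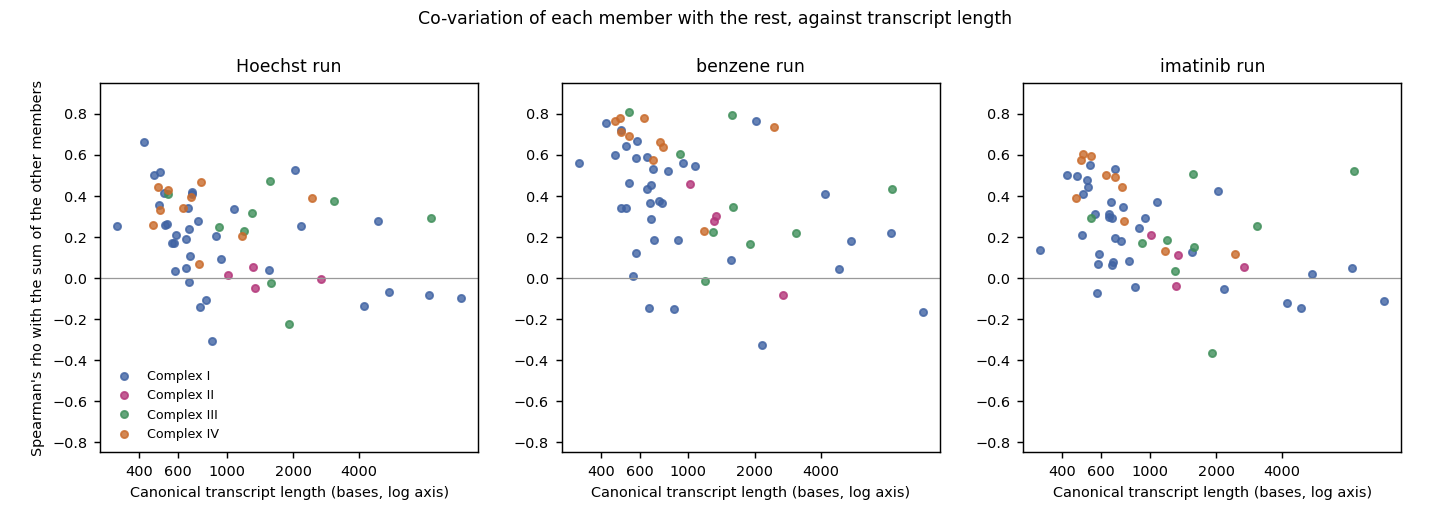
Spearman's rho of each member with the sum of the other members, pooled over the libraries of a run, against the length of its canonical transcript in bases on a log axis, coloured by complex. Members under 1000 bases have medians of 0.26, 0.56 and 0.30 in the Hoechst, benzene and imatinib runs, and longer ones 0.13, 0.23 and 0.12. The rho across members is −0.40, −0.48 and −0.54. Some long members, such as UQCRQ and NDUFA4, lie high, while NDUFS1 lies below 0.

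Ribosomal protein genes were frequent among the genes outside the list whose levels went most with the member sum. Over 8975 genes the highest means of the pooled rho over the 3 runs belonged to RPS21 (0.66), RPL38 (0.66), FAU (0.61), RPS19 (0.61), ENSG00000240036 (0.61), RPS2 (0.61), RPS14 (0.60), RPL37A (0.60), ENSG00000185641 (0.60) and RPL35 (0.60). ENSG00000240036 and ENSG00000185641 are annotated as processed pseudogenes. Within the first and second sides, the mean rho of these 10 genes was 0.42 and 0.46 in the Hoechst run, 0.36 and 0.23 in the benzene run and 0.30 and 0.55 in the imatinib run. They were picked by the pooled rho of the same libraries, so positive values on the sides follow largely from that choice. Of the top 40 genes, 20 are protein-coding genes with RPS or RPL symbols, which make up 0.925% of the 8975 genes, and 10 are pseudogenes with such symbols, which make up 1.67%. The first ATP synthase gene, ATP5ME, stood at rank 20, and PET100, an assembly factor of complex IV, at rank 142.

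The second question was whether the nuclear members moved with the 13 mRNAs of the mitochondrial genome, with which their proteins assemble. The summed level of these mRNAs, on the same scale of reads per 1000000 reads on nuclear genes, ranged from 6125 to 311544 in the Hoechst run with a median of 106420, from 3239 to 190374 in the benzene run with a median of 51275, and from 1590 to 222853 in the imatinib run with a median of 54977. The Hoechst run thus had the highest median, but its range covers most of the other 2. Per the paper, cells stained as dead were sequenced in the experiment with Hoechst and propidium iodide but left out in the others. The part of such cells in these levels was not tested. Both sums share a library's depth and its denominator.

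The rank correlation between the member sum and the mitochondrial mRNA sum was 0.23 in the Hoechst run, 0.01 in the benzene run and 0.32 in the imatinib run, pooled over all libraries kept. On the sides it was 0.22 and 0.10 in the Hoechst run, 0.41 and 0.13 in the benzene run, and 0.02 and 0.33 in the imatinib run. Without the 2 libraries farthest from the median mitochondrial level it was 0.47 and 0.16, 0.29 and 0.02, and 0.12 and 0.24. The sign was positive on every side, but the size depended on the side and on a pair of libraries. With mitochondrial genes kept in the denominator rho turned to −0.05 in the Hoechst run and fell to 0.14 in the imatinib run, and with the libraries over the 70% limit included it was −0.16 in the Hoechst run. Of single members, 35, 22 and 33 of 58 had a positive pooled rho in the Hoechst, benzene and imatinib runs, or 60.3%, 37.9% and 56.9%, against 48.8%, 41% and 25.5% of the 9033 genes. Genes found in 80% or more of libraries in every run are a closer match. Of these, 34, 21 and 32 of 53 members had a positive pooled rho, against 45.2%, 43.9% and 39.3% of 2333 genes.

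Complexes differed from each other in this relation. Complex II, which has no mitochondrially encoded subunit, had a pooled rho of −0.42 in the Hoechst run and −0.07 and −0.34 on its sides. In the imatinib run it had 0.16 and −0.31 on the sides, and in the benzene run 0.45 and −0.06. Complex IV had 0.12 and 0.19 on the sides of the Hoechst run, 0.18 and 0.20 in the benzene run, and −0.09 and 0.58 in the imatinib run. Complex I had 0.12 and 0.12, 0.21 and 0.24, and 0.08 and 0.35. Complex III had 0.25 and −0.03, 0.24 and −0.05, and −0.06 and −0.17. Of the 4 complexes, complex I alone had the same sign on every side. It differed in sign from complex IV only on the first side of the imatinib run, where both values were small. Without the 2 farthest libraries they were 0.08 for complex I and −0.03 for complex IV there.

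**Figure D4:**
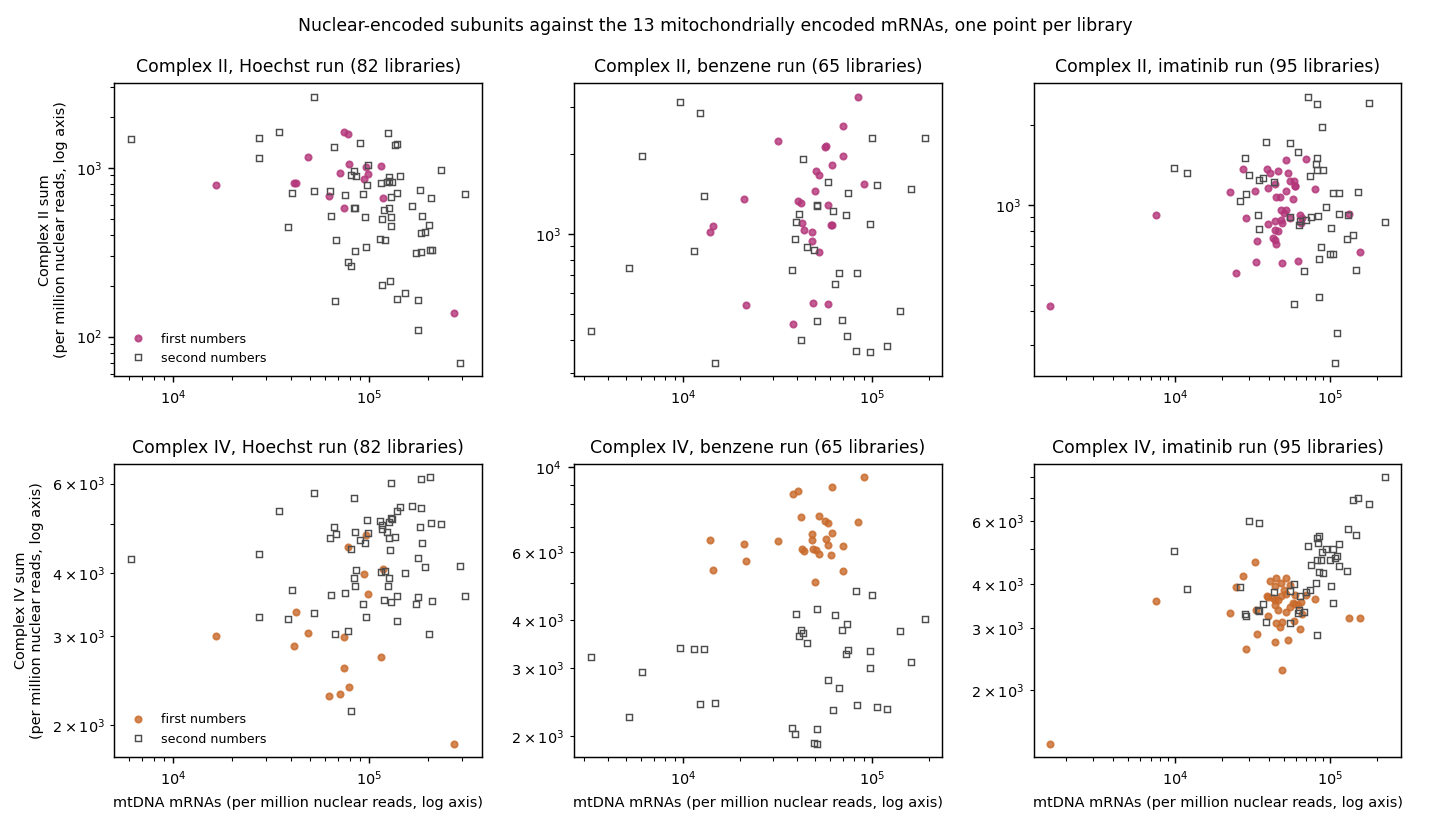
Summed level of complex II (upper row) and complex IV (lower row) members against the summed level of the 13 mitochondrially encoded mRNAs in each library, both in reads per 1000000 reads on nuclear genes on log axes, with the first and second numbers of each run in different colours. In the second numbers of the imatinib run complex IV goes up with the mitochondrial mRNAs (rho 0.58, n = 49), while complex II goes down (rho −0.31).

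Single members were also set against the mitochondrial mRNAs. COX6A1, the ubiquitous form of subunit 6A of complex IV (chromosome 12, 120875893 to 120878540 on GRCh37), had a pooled rho with the mitochondrial mRNAs of 0.46 in the Hoechst run, rank 32 of 9033 genes, of 0.21 in the benzene run, rank 311, and of 0.63 in the imatinib run, rank 13. On the sides it had 0.09 and 0.39 in the Hoechst run, 0.19 and 0.52 in the benzene run, and 0.08 and 0.77 in the imatinib run. NDUFB9, an accessory subunit of complex I, ranked 26, 146 and 15 in the Hoechst, benzene and imatinib runs, with 0.01 and 0.44, 0.35 and 0.27, and 0.10 and 0.64 on the sides. Without the 2 farthest libraries the first sides of the Hoechst and imatinib runs gave −0.02 and −0.06 for COX6A1 and −0.05 and −0.02 for NDUFB9. These 2 genes also formed the member pair with the highest mean rho, with pooled values of 0.54, 0.51 and 0.78 in the Hoechst, benzene and imatinib runs. COX6A1 lay between 176 and 1188 in the Hoechst run with a median of 462, between 17.1 and 1656 in the benzene run with a median of 662, and between 183 and 2023 in the imatinib run with a median of 524. The exons of COX6A1 and NDUFB9 overlap those of other listed genes by 13.1% and 13.2% of their length, and reads on pseudogenes named after COX6A1 amounted to 20.8% of its own. Their part in the relation was not tested beyond leaving both genes out, which took rho of the member sum in the imatinib run to 0.18. In the opposite direction, NDUFA8, a complex I subunit with paired cysteine motifs, had a pooled rho of −0.50 in the Hoechst run, rank 9029 of 9033. On the sides it had −0.28 and −0.39 in the Hoechst run, 0.18 and −0.04 in the benzene run, and 0.02 and −0.32 in the imatinib run. COX6A1, NDUFB9 and NDUFA8 were picked here after their values were seen, as extremes among many members. The size of their rho can therefore not be set against that of the complexes.

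Orange and Green libraries were compared on reads summed per group, as log2 ratios of levels with 1 added. With no replicate cultures named these ratios have no replicate check, and the exact 95% Poisson intervals beside them cover counting error only, since reads carry no molecular identifiers. In the benzene run the summed member level was 15597 (15560 to 15634) in the Orange libraries with benzene and 15619 (15580 to 15658) in the Green libraries without it. Over libraries it ranged from 6474 to 25506 (median 15346, n = 34) and from 8666 to 25150 (median 14964, n = 31), so the groups overlapped almost wholly. The median log2 ratio was −0.02 over 58 members and 0.04 over the 10042 genes tested. Of the members, 3 were higher by over 1.5-fold, against 23.6% of all genes tested, and 2 were lower, against 20.1%.

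SDHC, the scarce membrane anchor of complex II, had the largest ratio in the benzene run (log2 1.28). Its level was 13.9 (12.8 to 15) in the Orange and 5.15 (4.46 to 5.91) in the Green libraries, with a median of 0 in both groups and highest values of 139 and 46.1. The complex I subunits NDUFA9 (0.73) and NDUFA5 (0.65) were also higher. NDUFS3, a core subunit of the matrix arm, was lower (−0.88), with medians of 87.4 and 183 and ranges of 0 to 917 and 0 to 1202. NDUFB10, a small accessory subunit, was lower too (−0.75), with medians of 104 and 204. In each of these 5 genes the ranges of the groups overlapped. Within the first numbers 5 members were higher, against 27.2% of all genes, and 4 lower, against 25.6%. Within the second numbers 9 were higher, against 31.1%, and 6 lower, against 25.3%. On these sides SDHC had 1.53 and 0.87, NDUFA5 0.08 and 1.06, and NDUFA9 0.28 and 1.20. NDUFS3 had −0.65 and −1.14, and NDUFB10 −0.37 and −1.21. These 5 genes were picked by the pooled ratio of the same libraries, so a shared direction on both sides follows largely from that choice. The share of members past 1.5-fold was below the share of all genes in both directions on both sides, but those genes are not matched for detection or level.

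In the imatinib run the summed member level was 14396 (14363 to 14428) in the Orange libraries with imatinib and 13986 (13956 to 14016) in the Green libraries. Over libraries it ranged from 8683 to 23176 (median 13986, n = 45) and from 6317 to 19395 (median 13347, n = 50), with broad overlap. The median log2 ratio was 0.03 over 59 members and −0.01 over 11385 genes. No member was past 1.5-fold in either direction, while 10.5% of all genes, which are again not matched for detection, were higher and 11.5% lower. The same held within the first numbers, where 15.5% of all genes were higher and 14.1% lower, and within the second numbers, where 16% were higher and 20.2% lower. The members furthest from 0 were COX4I1 (0.29), NDUFC2 (0.28) and NDUFS4 (0.27) above it and NDUFS3 (−0.34), UQCRFS1 (−0.30) and NDUFV1 (−0.24) below it. COX4I1 lay between 397 and 1880 in the Orange libraries with a median of 1071, and between 261 and 1573 in the Green libraries with a median of 887. NDUFS3 thus had the lowest ratio in both runs, but its groups overlapped in each. Within the first and second numbers of the imatinib run NDUFS3 had −0.05 and −0.36, and COX4I1 had 0.18 and 0.41.

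Untreated libraries were then compared between runs. Where the Hoechst run is compared, run, stain and passage differ at once. The paper also states a distinct lot of K562 cells, another sequencer and another read length for the experiment stained with Hoechst. The Green libraries of the benzene and imatinib runs share stain and passage and differ in run. These 3 comparisons share groups of libraries, so each is given by its own values. Scaling matters here, since the median of all genes stood at 0.35 for the Hoechst run over the Green libraries of the benzene run, 0.22 for it over those of the imatinib run and 0.12 for the imatinib over the benzene run Green libraries. Trimmed-mean (TMM) factors would lower every ratio by 0.37, 0.24 and 0.13, and a member's ratio is best read against those medians.

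In the Hoechst run against the benzene run Green libraries, the median over 58 members was −0.10. Of them 9 were higher by over 1.5-fold, against 41.9% of 11015 genes, and 12 lower, against 19.4%. The highest were NDUFV2 (2.12), NDUFA5 (1.65) and NDUFC2 (1.18), all of complex I, and the lowest NDUFA9 (−1.49), NDUFA11 (−1.31) and NDUFA8 (−1.30), also of complex I. With TMM factors 3 members were higher and 27 lower. NDUFA5, a matrix-arm subunit, ranged from 13 to 634 in the Hoechst run (median 169) and from 0 to 415 in the Green libraries (median 41.9). NDUFA11, a membrane-arm subunit, ranged from 0 to 185 (median 30.9) and from 0.714 to 301 (median 91.4). Neither pair of ranges was apart.

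In the Hoechst run against the imatinib run Green libraries, the median over 59 members was 0.04. Of them 9 were higher, against 36.7% of 11682 genes, and 9 lower, against 21.3%. The highest were NDUFC2 (1.32), NDUFB6 (1.13) and NDUFV2 (1.05), and the lowest NDUFA7 (−1.28), NDUFA8 (−1.25) and UQCRC1 (−1.20). NDUFC2, a membrane-arm subunit, ranged from 14.3 to 350 in the Hoechst run (median 66.8) and from 9.21 to 75.1 in the Green libraries (median 28.6). UQCRC1 ranged from 0 to 2410 (median 399) and from 8.325 to 3418 (median 914). With TMM factors 16 members were lower. Complex II had 1 of 4 members above 0 in this comparison as in the former one, with medians of −0.58 and −0.28.

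For the imatinib run Green over the benzene run Green libraries, the median over 59 members was −0.26. Of them 7 were higher, against 31.6% of 11067 genes, and 5 lower, against 21.9%. SDHC (1.78), NDUFA7 (1.20) and NDUFV2 (1.08) were highest, 3 of the scarcest members, with medians of 5.50, 0 and 6.76 in the imatinib run and of 0, 0 and 0 in the benzene run. NDUFS4 (−0.69), NDUFA9 (−0.69) and NDUFA2 (−0.60) were lowest. NDUFS4 ranged from 1.03 to 175 (median 43.7) and from 0 to 306 (median 84.3), and with TMM factors 13 members were lower.

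**Figure D5:**
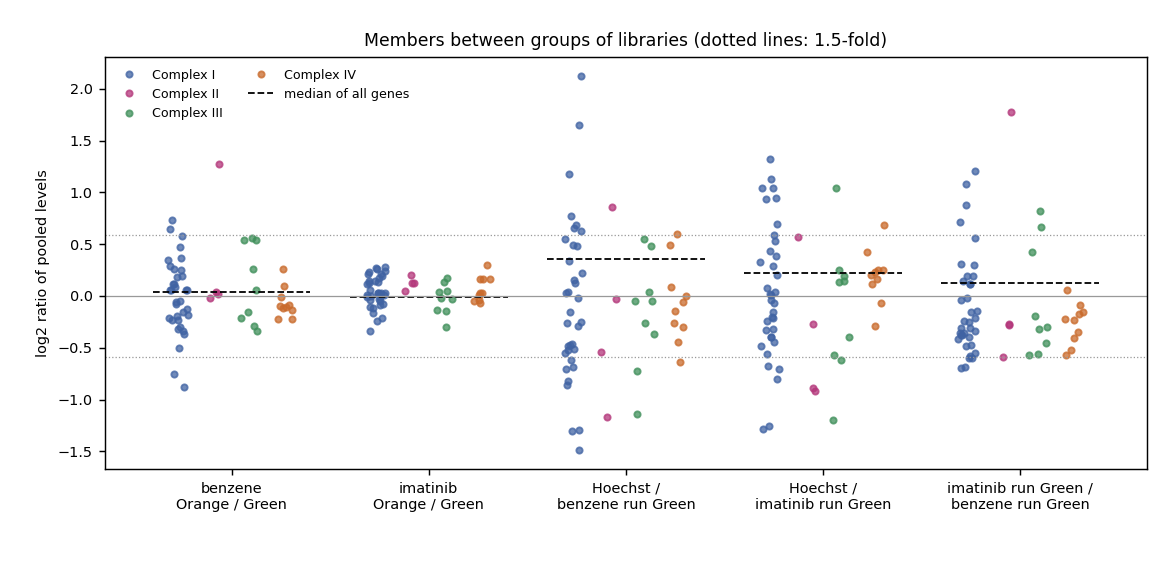
Log2 ratio of level between groups for each member in the 5 comparisons, coloured by complex, with the median of all genes tested as a dashed line. In the imatinib run every member lies between −0.34 and 0.29, while between runs members reach from −1.49 to 2.12.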

How the data were processed

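The counts the authors deposited were used as given. Per the labels and the methods, reads were trimmed with skewer, aligned to GRCh37 and the ERCC sequences with HISAT2, and counted per Ensembl gene with featureCounts (Subread 1.5.0), after Picard 1.92 had marked duplicates. Counts are whole reads per gene, not molecules, and 50358 to 2043351 of them fell on genes per library kept. A deposited table of scaled counts was not used. In the benzene run 4 columns matched no title and were left out. Gene names, overlaps and lengths came from GENCODE v44lift37, which held 55665 of the identifiers with 99.0% of the reads.

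Levels were reads per 1000000 reads on nuclear genes, detection was more than 2 reads, and ratios were of summed reads with a pseudocount of 1 over genes found in 20% or more of a group's libraries. Spearman's rho was computed over the libraries kept, with the 2 libraries farthest from the median left out as a check. Libraries were divided by number where the variance between sides, over 8975 genes outside the members, was largest. Python 3.11.15, numpy 2.4.6, pandas 2.3.3, scipy 1.17.1, matplotlib 3.10.9 and bedtools 2.31.1 were used, with scaling factors of edgeR 4.0.16 (TMM) and DESeq2 1.42.0 in R 4.3.3 as alternatives. No test was run, as libraries are not replicates. The steps were tested on simulated data.

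The members and lists were chosen with earlier results of these data known, although the rule for the members uses symbols alone. Genes were named as the highest and lowest per length of each complex, the 3 highest and 3 lowest ratios of each comparison with all past 1.5-fold where these are 10 or fewer, the 3 largest and smallest spreads, the 3 highest and lowest rho with the rest, the 10 other genes most like the member sum, and members with shared exons or pseudogenes. Catalytic or otherwise described subunits beyond this rule were chosen after their values were seen. Promoter windows came from RefSeq (GRCh38.p14).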

Additional observations from a re-analysis of the deposited data

How the results depend on the processing

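Over 39 results, 370 alternative values were computed, of which 247 were planned and 123 added after the data were seen. A value was taken as moved when it differed by more than its spread, which was the SD over libraries, pairs or members, or for a correlation 0.111, 0.125 and 0.103 in the Hoechst, benzene and imatinib runs (1 over the root of n − 1), and for a count when it differed by over 1.5 times. By this, 282 stayed, 82 moved and 6 changed sign from a value larger than its spread, while 39 changed sign in all. Without members that share exons or have pseudogenes the summed level was 7637, 8378 and 7572 in the Hoechst, benzene and imatinib runs, and it was 20914 in the first numbers of the benzene run. The median rho over member pairs of the Hoechst run was 0.259 with all libraries and 0.232 in its first numbers.

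The rank correlation with the mitochondrial mRNAs in the Hoechst run was −0.162 with all libraries (complex I −0.0908, complex IV −0.0664), −0.0463 with mitochondrial genes in the total, 0.104 as Pearson's r of log2 levels and 0.10 in the second numbers. In the benzene run it was 0.150 with all libraries and 0.414 in the first numbers. In the imatinib run it was 0.142 with mitochondrial genes in the total, 0.442 as Pearson's r, 0.432 without libraries of over 10000 genes, 0.175 without COX6A1 and NDUFB9, 0.144 for members free of shared exons and pseudogenes, and 0.0197 in the first numbers, where complex II had 0.160 and complex IV −0.0850.

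Counts of members past 1.5-fold moved most between runs. In the Hoechst run over the benzene run Green libraries 3 were higher and 27 lower with TMM factors, 3 and 29 with DESeq2 size factors, and 3 and 5 at 2-fold. Over the imatinib run Green libraries 16 were lower with TMM factors, 19 with size factors and 17 with means of log2 levels, and at 2-fold 5 were higher and 3 lower. For the imatinib over the benzene run Green libraries 13 were lower with TMM factors and 17 with size factors, 16 higher and 0 lower with means of log2 levels, 2 lower with a pseudocount of 10, 8 lower without libraries of over 10000 genes, and 3 higher and 0 lower at 2-fold. For benzene 9 were higher and 6 lower with means of log2 levels, 5 and 4 in the first numbers, 9 and 6 in the second, 1 and 0 at 2-fold, and 5 higher without libraries of over 10000 genes or without libraries 92, 93 and 94, whose stain labels are in doubt because titles and columns of this run do not all match. For imatinib 2 were lower with means of log2 levels. The causes were not tested. Scarce members such as NDUFA7 rest on few reads per library. No paired analysis was possible because the Green and Orange libraries of a run share no number, nothing ties libraries of 1 number in different runs, and no result comes from a test.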

Other observations

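The genes around the chain divided by kind. Of the 7 tissue- or oxygen-dependent isoforms of complex I and IV subunits, none was detected in 20% of the libraries of any run, and COX4I2, the form of subunit 4 known from lung and low oxygen, had a median of 0 in all 3 runs. The heart and muscle form COX7A1 also had a median of 0. COX6B2, known from testis, was detected in 7.32%, 4.62% and 1.05% of the Hoechst, benzene and imatinib run libraries. The ubiquitous partners COX4I1, COX6B1 and COX7A2 were found in 98.5% or more of libraries in each run.

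The nuclear subunits of the ATP synthase were as widely detected as the members, with 17, 16 and 17 of 17 found in at least 80% of libraries. ATP5F1B, the catalytic beta subunit, had median levels of 1427, 3662 and 4051, and ATP5F1D, the delta subunit, 20.4, 12.4 and 14.1. The 42 matched assembly factors, which build the complexes and are not part of them, were scarcer, with 13, 11 and 27 detected in at least 80% of libraries and medians over the list of 10.2, 6.41 and 26.8. COA1, UQCC2 and FOXRED1 were at their upper end, with medians of 121, 157 and 136 in the Hoechst run and 230, 169 and 269 in the imatinib run.

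Of 13 regulators of mitochondrial genes, 4, 3 and 9 were detected in at least 80% of libraries. TFAM, which packs and transcribes mitochondrial DNA, had medians of 136, 124 and 151, and LRPPRC, which stabilises mitochondrial mRNAs, 301, 331 and 431. YY1 had 121, 66.3 and 165. PPARGC1A, the coactivator PGC-1alpha, was detected in 3.66%, 1.54% and 1.05% of libraries. TFAM and LRPPRC had a mean of the pooled rho with the member sum of −0.00 and −0.14, ranks 3825 and 7747 of 8975 genes.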
